A study of Saccharomyces cerevisiae with 6 samples.

Results

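The 10 genes of daughter cell separation described here were measured in the budding yeast *Saccharomyces cerevisiae*. They are *CTS1*, *DSE1*, *DSE2*, *DSE3*, *DSE4*, *SCW11*, *EGT2*, *AMN1*, *ASH1* and *SIC1*, matched by symbol in the probe table of the platform, and all 10 of 10 were found among the 5449 *S. cerevisiae* genes with a probe set. Each has 1 probe set, and that probe set was above background on all 6 arrays. RNA came from the haploid laboratory strain BY4742, of the alpha mating type, which carries the mutations *his3Δ1*, *leu2Δ0*, *lys2Δ0* and *ura3Δ0* in every group. All cultures grew in YPD at 30 °C for 24 h and were then moved to fresh medium for a further 24 h. In the untreated control the fresh YPD held no addition. The nystatin group received nystatin, an antifungal that binds ergosterol and opens pores in the membrane, at 0.27 mg/L in the labels, while the methods give a slightly lower dose. In the nystatin + CdS QDs group the same nystatin was joined by cadmium sulphide quantum dots at 100 mg/L. There were 2 arrays in each group, made from aliquots of RNA extract according to the methods, so p-values measure the spread between these arrays, which may be technical. No group received CdS QDs without nystatin.

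When a yeast cell divides, a septum of chitin and glucan is left between mother and bud. The bud takes it apart from its own side with a small set of secreted enzymes. Their genes are switched on at the passage from mitosis into G1, and their expression in the daughter depends on the kinase Cbk1 and its partner Mob2, of the RAM network. The transcription factor Swi5 acts on some of these genes, among them *EGT2*, *ASH1* and *SIC1*. Cells in which the septum is not taken apart stay attached to each other in clumps.

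The values are log2 expression values after RMA, a procedure that corrects the background, makes the distribution of the arrays equal and summarises the probes of each probe set. Median values of *S. cerevisiae* probe sets were 7.72 to 7.73 on every array, and 98.8% to 99.2% of those probe sets lay above the background, taken as the 95th percentile of fission yeast probe sets on the same array. The 2 arrays of a group differed by a standard deviation over probe sets of 0.0898 in the control, 0.0954 with nystatin and 0.133 with nystatin + CdS QDs. As a check of the strain, *URA3* and *LYS2* were above background on 0 of 6 arrays and *LEU2* on 4 of 6, at 1.29 to 2.29, while *HIS3*, only partly deleted, read 7.84 to 8.63. The alpha genes *MF(ALPHA)1*, *MF(ALPHA)2* and *STE3* and the a genes *MFA1*, *MFA2*, *STE2* and *BAR1* were all above background on 6 arrays. This cut is low, so it does not tell the mating types apart. The words "rose" and "fell" are used only where limma, fitted over all 5498 *S. cerevisiae* probe sets, gave an adjusted p (Benjamini-Hochberg) below 0.05.

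With nystatin + CdS QDs, 8 of the 10 separation genes fell against the untreated control, none rose, and *SIC1* and *AMN1* were not called by limma. At an unadjusted p under 0.05 the counts were also 8 lower and 0 higher. This looser cut includes every call above, and the share of all probe sets at it was not counted. Among all probe sets 38.9% fell in this comparison and 36.5% rose. The median log2 fold change of the 10 genes was −1.28, against −0.0136 over all probe sets, and single genes ranged from −1.85 (*DSE1*) to 0.04 (*AMN1*). At a log2 fold change of −1 or less with an unadjusted p under 0.01, the thresholds of the study, 7 of the 10 genes passed, and 5.15% of all probe sets did so. The 10 genes and the related lists below were chosen with earlier results of these data known. Their contrasts with all probe sets are therefore descriptions and no test of the lists. In whole cultures such as these, fewer cells at the stage that makes a transcript and less of it per cell cannot be told apart. In the plot of values by array, both CdS QDs arrays stand below both control arrays for 8 genes. Over all probe sets 44.9% shared this pattern. For these 8 genes the CdS QDs arrays also stand below both nystatin arrays. The share of all probe sets below all other arrays was not counted, so this cannot be set against a background.

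**Figure D1:**
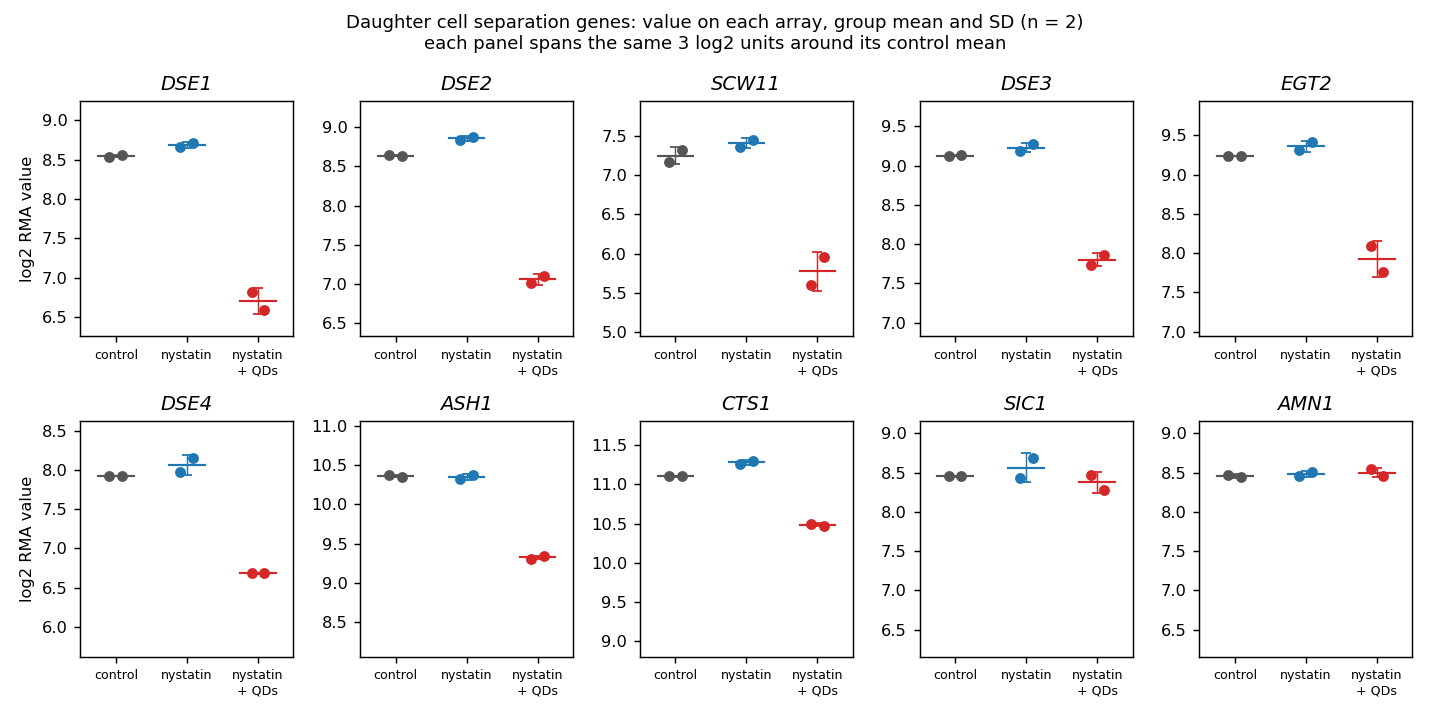
Log2 RMA value (y axis) of each separation gene on each array, by group (x axis), with the group mean (horizontal line) and SD (bar, n = 2 arrays); every panel spans 3 log2 units. From *DSE1* to *CTS1* both CdS QDs arrays lie below both control arrays, as for 44.9% of all probe sets. The groups of *SIC1* and *AMN1* overlap.

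The secreted enzymes of the septum all fell, to different extents. *DSE2*, which encodes a daughter-specific secreted protein similar to glucanases, read 8.64 and 8.63 on the control arrays and 8.83 and 8.88 on the nystatin arrays, and dropped to 7.01 and 7.11 where CdS QDs were added. The 3 groups did not overlap. Against the control it fell by 1.57 (standard error 0.050, adjusted p = 5.63e-07), to 33.6% of the control level. *SCW11*, also for a glucanase-like wall protein, read 7.17 and 7.32 in the control, 7.36 and 7.45 under nystatin, and 5.60 and 5.95 under nystatin + CdS QDs. Both CdS QDs arrays were lower than the others, although they differed from each other by 0.352. On the log2 scale it fell by 1.47 (standard error 0.11, adjusted p = 2.60e-05).

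*EGT2*, for a wall-anchored endoglucanase, had the most even control arrays, at 9.24 on both. It read 9.31 and 9.41 with nystatin and 8.09 and 7.76 with nystatin + CdS QDs, the CdS QDs arrays again lower and 0.323 apart. *EGT2* fell by 1.31 on the log2 scale (standard error 0.10, adjusted p = 2.39e-05). *DSE4*, also known as *ENG1*, encodes an endoglucanase that cuts the glucan of the septum. Its control arrays both read 7.92, its nystatin arrays 7.97 and 8.15, and its CdS QDs arrays 6.69 and 6.68. The CdS QDs arrays were nearly equal and far under the rest, and *DSE4* fell to 42.4% of the control level (−1.24 on the log2 scale, standard error 0.064, adjusted p = 4.01e-06).

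*CTS1* encodes the chitinase that digests the chitin layer joining mother and daughter. It moved least among the 8 genes that fell. It read 11.11 and 11.10 in the control, 11.26 and 11.30 under nystatin, and 10.50 and 10.47 under nystatin + CdS QDs. All 3 groups were apart, with nystatin highest. *CTS1* fell to 65.3% of the control level (log2 fold change −0.61, standard error 0.042, adjusted p = 1.46e-05), with a 95% interval of −0.72 to −0.51.

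Among the daughter-specific genes whose products are not septum enzymes, *DSE1* and *DSE3* fell and *AMN1* did not pass the test. *DSE1*, a daughter-specific gene whose loss leaves cells poorly separated, had the largest fold change of the 10, the 72nd lowest of 5498 probe sets. It read 8.54 and 8.56 in the control, 8.66 and 8.71 under nystatin, and 6.82 and 6.58 under nystatin + CdS QDs. The 2 CdS QDs arrays lay 0.247 apart, a small gap beside their distance from the control. *DSE1* fell by 1.85 (standard error 0.079, adjusted p = 1.80e-06), to 27.7% of the control level. *DSE3*, a daughter-specific gene of less certain role, read 9.12 and 9.13, then 9.19 and 9.27, then 7.74 and 7.86, in the same order of groups. It fell by 1.33 (standard error 0.056, adjusted p = 1.75e-06).

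*AMN1* encodes a daughter protein that binds the GTPase Tem1 and helps to switch off the mitotic exit network. The S288C background, from which BY4742 derives, carries an allele with which cells separate well. *AMN1* read 8.47 and 8.44 in the control, 8.46 and 8.51 under nystatin, and 8.54 and 8.46 under nystatin + CdS QDs. The groups overlapped, and the log2 fold change of nystatin + CdS QDs against control was 0.04, with a 95% interval of −0.07 to 0.16 (adjusted p = 0.443).

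The 2 remaining genes act in the nucleus on the fate and cycle of the new cell. *ASH1* encodes a repressor whose mRNA is carried into the bud and which keeps the mating type switch gene off in daughters. It read 10.37 and 10.35 in the control, 10.32 and 10.37 under nystatin, and 9.31 and 9.34 under nystatin + CdS QDs. Control and nystatin arrays overlapped, while the CdS QDs arrays were at 48.8% of the control level (log2 fold change −1.03, standard error 0.043, adjusted p = 1.63e-06). *SIC1* encodes the inhibitor of B-type cyclin kinase that holds cells in G1. It read 8.46 and 8.45 in the control, 8.43 and 8.69 under nystatin, and 8.47 and 8.28 under nystatin + CdS QDs. No group stood apart, and the log2 fold change was −0.08, with a 95% interval of −0.31 to 0.15 (adjusted p = 0.495).

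In order of log2 fold change the genes ran *DSE1*, *DSE2*, *SCW11*, *DSE3*, *EGT2*, *DSE4*, *ASH1*, *CTS1*, *SIC1* and *AMN1*. Neighbours in this order had overlapping 95% intervals, except that *CTS1* lay apart from *ASH1* above it and from *SIC1* below it. The fall was graded from 3.61-fold in *DSE1* to 1.53-fold in *CTS1*. The CdS QDs arrays differed most for *SCW11*, *EGT2* and *DSE1*, and in no shared direction: replicate 2 was the higher one for *SCW11* and the lower one for *EGT2* and *DSE1*. With either CdS QDs array left out, the log2 fold change stayed between −1.64 and −1.29 for *SCW11*, −1.47 and −1.15 for *EGT2* and −1.97 and −1.73 for *DSE1*. The distance between 3' and 5' probe sets of control mRNAs is a sign of RNA integrity or labelling. Its mean over 7 mRNAs was 1.41 to 1.47 log2 units on the control and nystatin arrays and 1.58 on both CdS QDs arrays. Single mRNAs differed widely, from 0.03 for *RIP1* to 5.25 for *SRB4* in the control. They did not all shift the same way. *WBP1* went from 1.79 and 1.77 in the control to 2.21 and 2.13 with nystatin + CdS QDs, and *SPT15* from 0.97 and 0.88 to 0.85 and 0.74. For 25S ribosomal RNA the distance was 5.54 to 5.67 on the control and nystatin arrays and 6.18 and 6.75 on the CdS QDs arrays, and for 18S ribosomal RNA −1.39 to −0.85 and then 0.73 and 0.82. The part of these differences in the results was not tested.

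**Figure D2:**
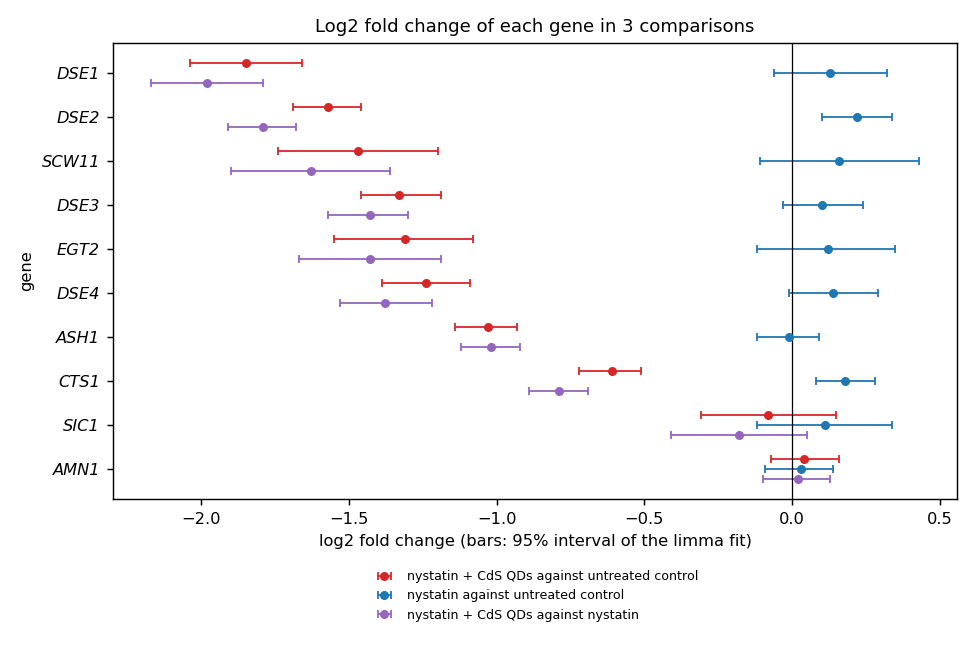
Log2 fold change (x axis) of each separation gene (y axis) in the 3 comparisons, with 95% intervals of the limma fit over 6 arrays. The 8 upper genes lie left of 0 in both comparisons of nystatin + CdS QDs, and nystatin alone leaves every gene between −0.01 and 0.22.

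Nystatin alone moved these genes little. *CTS1* rose by 0.18 (standard error 0.042, adjusted p = 0.0286) and *DSE2* by 0.22 (standard error 0.050, adjusted p = 0.0243), none fell, and 8 were not called by limma. At an unadjusted p under 0.05, 0 were lower, and the share of all probe sets at that cut was not counted. Over all probe sets 10.4% rose in this comparison and 11.4% fell. In the direction of their values 9 of the 10 genes were above the control mean, with a median log2 fold change of 0.12 against −0.0051 over all probe sets. *ASH1* was the exception, at −0.01. Both nystatin arrays were higher than both control arrays for 7 genes, a pattern that 34.3% of all probe sets shared. The calls of *CTS1* and *DSE2* did not hold without untreated control replicate 1 (adjusted p = 0.140 and 0.127), untreated control replicate 2 (0.134 and 0.121), nystatin replicate 1 (0.0902 and 0.0777) or nystatin replicate 2 (0.152 and 0.142).

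The comparison with nystatin alone sets apart cultures that differ in the quantum dots. The same 8 genes fell and none rose by limma, while 38.3% of all probe sets fell and 36.7% rose. At an unadjusted p under 0.05, 0 of the separation genes were higher, and the share of all probe sets at that cut was not counted. The median log2 fold change was −1.40. *DSE1* fell by 1.98 (standard error 0.079, adjusted p = 1.42e-06), to 25.3% of the level with nystatin, *DSE2* by 1.79 (standard error 0.050) and *SCW11* by 1.63 (standard error 0.11). *CTS1* fell by 0.79 (standard error 0.042, adjusted p = 4.82e-06). *SIC1* stood at −0.18 on the log2 scale (standard error 0.097, adjusted p = 0.125). Without nystatin replicate 1, the lower of the nystatin pair for *SIC1*, this became −0.32 and passed the test (adjusted p = 0.0230). *AMN1* was at 0.02 (adjusted p = 0.775). The 2 comparisons of nystatin + CdS QDs share their CdS QDs arrays, so one is no repeat of the other.

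**Figure D3:**
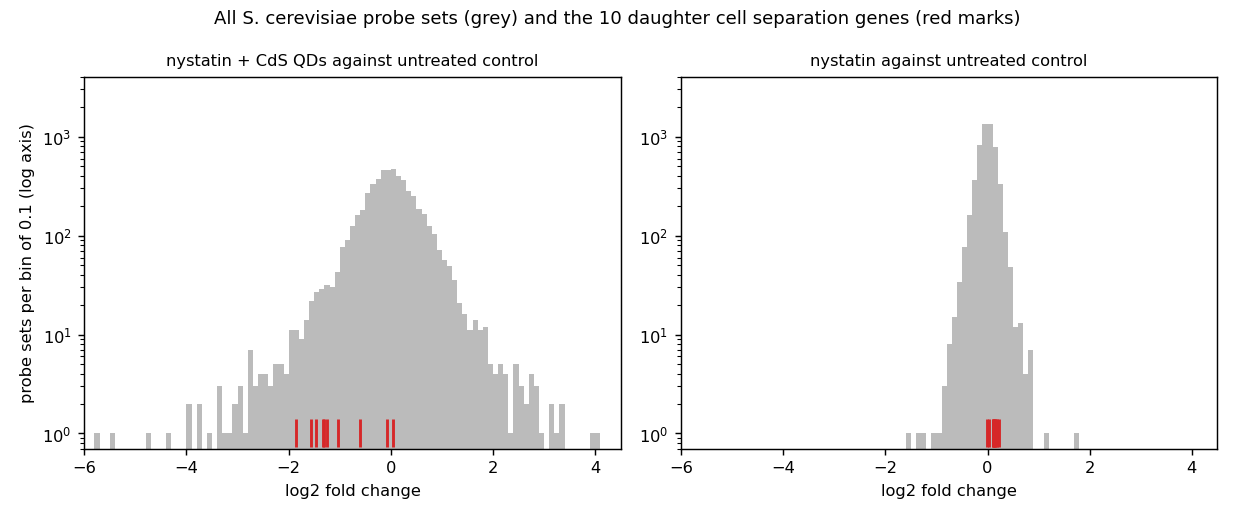
Number of *S. cerevisiae* probe sets (y axis, log scale) by log2 fold change (x axis, bins of 0.1) for nystatin + CdS QDs (left) and nystatin alone (right) against the untreated control, with the 10 separation genes as red marks. On the left 7 marks lie at −1.03 or lower; on the right all 10 lie within 0.22 of 0.

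*SWI5* read 6.63 and 6.55 in the control, 6.55 and 6.68 under nystatin, and 6.64 and 6.61 under nystatin + CdS QDs, and its log2 fold change of 0.04 did not pass the test (standard error 0.058, adjusted p = 0.558). Of 8 genes of the RAM network and *SWI5*, 2 rose and 2 fell with nystatin + CdS QDs against the control (against 36.5% and 38.9% of all probe sets), and the median was 0.02. The change was smaller than 1 on the log2 scale for each of these 8. *MOB2*, which activates the kinase Cbk1, rose by 0.65 (standard error 0.072, adjusted p = 1.48e-04), and *SOG2* by 0.40. *HYM1*, a scaffold of the network, fell by 0.44 (standard error 0.067) and *SSD1*, for an RNA-binding target of Cbk1, fell by 0.30. *CBK1* itself was at −0.0017 (standard error 0.044, adjusted p = 0.975), with 7.76 and 7.73 in the control and 7.76 and 7.72 with nystatin + CdS QDs.

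Of 12 other genes expressed at the M/G1 boundary, 6 fell, 4 rose and 2 did not pass, with a median of −0.23. Over all probe sets 38.9% fell and 36.5% rose, so the 33.3% of this list that rose is near the background. *RME1*, for a repressor of meiosis, read 10.41 and 10.44 in the control and 9.09 and 9.06 with nystatin + CdS QDs, and fell by 1.35 (standard error 0.048, adjusted p = 7.91e-07). *PRY3*, for a wall protein of daughter cells, fell by 0.89 (standard error 0.050). *CHS1*, for the chitin synthase that repairs the wall during separation, fell by 0.84 (standard error 0.044, adjusted p = 4.34e-06). The other 3 that fell were *AIM44* (fell by 0.55), *PIR1* (fell by 0.44) and *FAA3* (fell by 0.39). *PCL2*, a cyclin gene of the kinase Pho85, went the opposite way, from 5.23 and 5.19 to 6.72 and 6.92, a rise of 1.62 (standard error 0.090, adjusted p = 5.65e-06). *CDC6*, which loads the replicative helicase, rose by 1.03, *TEC1*, for a factor of filamentous growth, by 0.73 and *CYK3*, of cytokinesis, by 0.59.

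**Figure D4:**
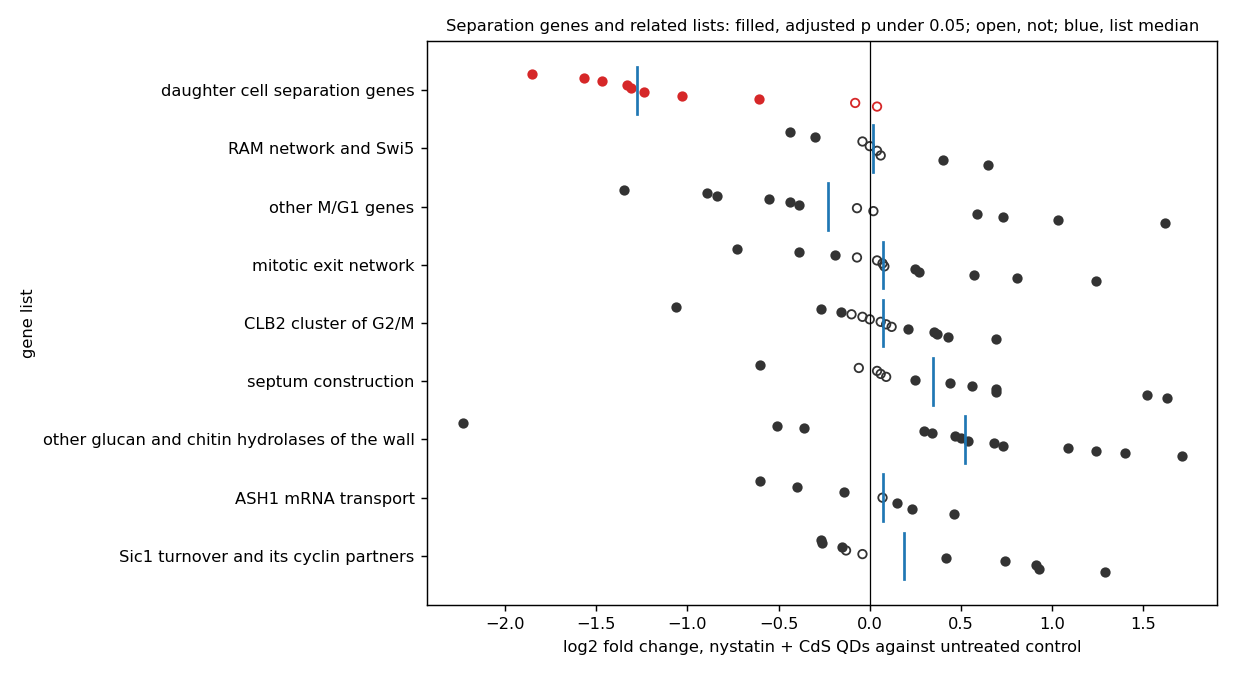
Log2 fold change (x axis) of nystatin + CdS QDs against the untreated control for the genes of 9 lists (y axis), with filled points for an adjusted p under 0.05, open points for the rest and blue lines at the list medians. The separation genes have a median of −1.28, and the medians of the other lists lie between −0.23 and 0.52. All 9 lists were chosen with earlier results of these data known.

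Of 12 genes that build the septum, 7 rose, 1 fell and 4 did not pass with nystatin + CdS QDs against the control, with a median of 0.34. That is 58.3% that rose, against 36.5% of all probe sets. *CHS7*, needed for export of chitin synthase from the endoplasmic reticulum, went from 7.16 and 7.34 to 8.86 and 8.89, a rise of 1.63 (standard error 0.067, adjusted p = 1.60e-06). *FKS1*, for the main glucan synthase, rose by 1.52 (standard error 0.052, adjusted p = 7.21e-07) and *CDC10*, a septin gene, by 0.69. The alternative glucan synthase gene *GSC2* was the 1 that fell, by 0.60 (standard error 0.042). *CHS2*, for the chitin synthase of the primary septum, was at 0.04 (standard error 0.061, adjusted p = 0.603).

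Of 14 wall hydrolases and related enzymes outside the 10 genes, 11 rose and 3 fell, with a median of 0.52. That is 78.6% that rose, against 36.5% of all probe sets. *UTR2*, for a transglycosylase that joins chitin to glucan, rose by 1.71 (standard error 0.064, adjusted p = 9.93e-07), *EXG2*, an exoglucanase gene, by 1.40 and *SCW10*, a glucanase-like gene, by 1.24. The 3 that fell were *NCA3* and *SUN4*, both of the SUN family of wall proteins, and the second chitinase gene *CTS2*. The SUN family did not move as a whole, since its other genes *SIM1* and *UTH1* rose by 1.09 and 0.54. Of those that fell, *NCA3* read 8.93 and 9.06 in the control, 9.59 and 9.75 under nystatin, and 6.82 and 6.71 under nystatin + CdS QDs. Its 3 groups were apart, and against the control it rose by 0.67 with nystatin (adjusted p = 0.00322) and fell by 2.23 with nystatin + CdS QDs (standard error 0.074). *SUN4* fell by 0.51 and *CTS2* fell by 0.36.

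Genes of the mitotic exit network, which ends mitosis before separation begins, rose in 5 of 12 cases and fell in 3 (against 36.5% and 38.9% of all probe sets), with a median of 0.08. *DBF2*, a kinase gene of the network, went from 6.80 and 6.81 to 8.04 on both arrays, a rise of 1.24 (standard error 0.040, adjusted p = 6.33e-07). *TEM1*, for the GTPase that Amn1 binds, rose by 0.81 (standard error 0.048) and *MOB1* by 0.57, while *BUB2*, for an inhibitor of Tem1, fell by 0.39. The *CLB2* cluster peaks in G2/M, and *SWI5* belongs to it. Of 14 genes of this cluster and its regulators, 5 rose and 3 fell (35.7% and 21.4%), with a median of 0.07. The B-type cyclin genes *CLB1* and *CLB2* went opposite ways. *CLB1* fell by 1.06 (standard error 0.045) and *CLB2* rose by 0.69 (standard error 0.094). *FKH1*, for a forkhead factor that regulates this cluster, rose by 0.43 and *IQG1*, of the contractile ring, by 0.35.

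Of 7 genes that carry or silence the *ASH1* mRNA, 3 rose and 3 fell (42.9% each, near the 36.5% and 38.9% of all probe sets), with a median of 0.07. The motor gene *MYO4* rose by 0.46 (standard error 0.046) and the RNA-binding gene *SHE2* by 0.23, while *LOC1*, which acts on the mRNA in the nucleus, fell by 0.60 (standard error 0.061) and the translation repressor gene *PUF6* fell by 0.40. Of 10 genes of Sic1 turnover and its cyclin partners, 5 rose and 3 fell (against the same 36.5% and 38.9%), with a median of 0.19. The 4 with the smallest adjusted p all rose: the G1 cyclin gene *CLN2* by 1.29 (standard error 0.050, adjusted p = 1.22e-06), the kinase gene *CDC28* by 0.93, and the S phase cyclin genes *CLB6* by 0.91 and *CLB5* by 0.74. The 3 that fell were genes of Sic1 turnover, *SKP1* by 0.27, *CDC53* by 0.26 and *CDC4* by 0.15. The level of *SIC1* beside these genes did not pass the test.

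None of the 10 genes is next to another on its chromosome in the R64 gene order. Their 20 flanking protein-coding genes were all measured, and 11 fell, 4 rose and 5 did not pass, with a median of −0.27. These are 55.0% and 20.0%, against 38.9% and 36.5% of all probe sets. Beside the 8 separation genes that fell, 1 of 16 flanking genes was at −1 or less, *MDJ2* beside *EGT2*, which fell by 1.42 (standard error 0.078). Of all probe sets 5.15% were at −1 or less with an unadjusted p under 0.01, so this count is near the background. *DSE2* lies beside *CHS7*, and these 2 genes went opposite ways. *AMN1*, which was not called, lies beside *ICS2*, which fell by 2.71 (standard error 0.058).

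Finally, the mean pattern of the 10 genes was set against all 5439 other genes, each taken as its log2 value minus its own control mean. This mean was 0.07 and 0.17 on the nystatin arrays and −1.03 and −1.06 on the CdS QDs arrays. The 5 nearest genes over the 6 arrays, by root mean square difference in log2 units, were *ROT2* (0.0296), *PLB1* (0.0393), *KRE29* (0.0398), *IMD3* (0.0507) and *YNL092W* (0.0541). The probes of *IMD3* may also read its near-identical relatives. *ROT2*, for a glucosidase of glycoprotein folding, read 8.85 on both control arrays, 8.97 and 8.99 with nystatin and 7.77 and 7.79 with nystatin + CdS QDs. Of the separation genes *ASH1* was closest to their common mean (0.0794) and *AMN1* farthest from it (0.631). Each of the 10 was thus farther from this mean than the 5 named genes, which resemble the mean and not a given member. By group means alone, 2 of these 5 stayed among the nearest 5. The arrays fall into 3 groups of 2, so that many genes can share such a pattern, and 33 genes lay within 0.1 of it.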

How the data were processed

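RNA was hybridised to GeneChip Yeast Genome 2.0 arrays, and the log2 values were used as deposited. The authors made them with Affymetrix Expression Console and RMA from perfect match probes; the amount of RNA per array differs between the labels and the methods. Of 10928 probe sets, the 5498 that the platform table pairs with *S. cerevisiae* genes (5449 genes, symbols updated to R64) were tested, and 1747 of *S. pombe*, 213 controls and 3470 with no gene listed were left out. A gene is given by its brightest probe set, that of the largest average across arrays.

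One mean per group was fitted with limma 3.58.1 under R 4.3.3 (3 residual and 3.80 prior degrees of freedom), and 3 comparisons were made with two-sided tests and Benjamini-Hochberg adjustment over all 5498. Standard errors and 95% intervals come from this fit. An exact permutation test of 2 arrays against 2 cannot go below p = 0.333 and was not used. The fit was tested on simulated data. The number of arrays limits the precision. The result of 1 regulator is not reported here.

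The 10 genes and the related lists, written from general knowledge, were chosen with earlier results of these data known, and lists are described by counts and medians without a set test. From each list the 4 genes with the smallest adjusted p for nystatin + CdS QDs against the control are named, with *SWI5*, *CBK1*, *MOB2*, *TEM1*, *CHS1* and *CHS2*. Named after their values were seen were *AIM44*, *PIR1*, *FAA3*, *CDC6*, *TEC1*, *CYK3*, *SUN4*, *CTS2*, *SIM1*, *UTH1*, *SKP1*, *CDC53* and *CDC4* and the flanking genes. Figures were drawn with Python 3.11.15 and matplotlib 3.10.9.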

Additional observations from a re-analysis of the deposited data

Results flagged for a closer look

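The control probe sets of 18S ribosomal RNA, which no comparison above uses, gave a difference between 3' and 5' probe sets of 0.73 and 0.82 log2 units on the nystatin + CdS QDs arrays, against −1.39 and −1.34 on the untreated control arrays and −0.94 and −0.85 with nystatin. The 3 groups did not overlap, the CdS QDs arrays being the only ones above 0. Its part in the values of the separation genes was not tested.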

How the results depend on the processing

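Against the untreated control, 8 separation genes fell with nystatin + CdS QDs under each of 9 alternatives, and 7 were past the thresholds of the study. With its size of change and an adjusted p under 0.05, 7 passed. With an unadjusted p under 0.01 and no size of change, 8 passed. Against nystatin 8 fell under each alternative. The alternatives were the replicate number as a block, an intensity trend, no moderation, only the 4 arrays compared and all probe sets. The others were dim probe sets left out, repeated quantile normalization, median centring and the mean over own probe sets. Each of the 6 arrays was also left out in turn. The log2 fold changes of the 8 genes against the control then stayed between −1.97 (*DSE1*) and −0.6 (*CTS1*). These settings are not independent checks. Each gene has 1 probe set, so the mean over own probe sets left its values as they were. In several settings no fold change of nystatin + CdS QDs against the control could move. These were the block, the intensity trend, no moderation, all probe sets and dim probe sets left out. The same held with a nystatin array left out or only the 4 arrays compared, which for this comparison gave the same estimates. Only the estimate of the spread and the adjustment of p could change there. With nystatin alone the count of 2 that rose became 0 with no moderation, 0 with all probe sets tested, and 0 to 2 with an array left out; the cause was not tested. With the replicate number as a block (replicate numbers only, with correlations of deviations of 0.0249, 0.00828 and −0.0511 between groups) the counts were 8 that fell, 8 that fell against nystatin, and 2 that rose and 0 that fell with nystatin alone. Values near 0 changed sign when an array was left out. *SIC1* ran from −0.17 to 0.0176 with nystatin + CdS QDs against the control, and from −0.0249 to 0.24 with nystatin alone. *AMN1* ran from −0.000236 to 0.0539 with nystatin alone, and from −0.0238 to 0.0559 with nystatin + CdS QDs against nystatin, where it was −0.0111 without nystatin replicate 1. *ASH1* ran from −0.0375 to 0.00981 with nystatin alone. By group means alone, 2 of the 5 nearest genes were shared. A motif search in promoters was planned and not run, for want of promoter sequences. A group left with a single array was assumed to have the spread of the rest.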
